A study of Equisetum hyemale and Pteris vittata and Marchantia polymorpha with 22 samples.

Results

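Acyl-CoA-binding proteins (ACBPs) were followed through the dark hypoxia transcriptomes of the liverwort *Marchantia polymorpha*, the moss *Physcomitrium patens*, the lycophyte *Selaginella moellendorffii*, the horsetail *Equisetum hyemale* and the fern *Pteris vittata*. The members were all features whose best hit in *A. thaliana*, as given in the deposited tables, was one of the 6 genes *ACBP1* (AT5G53470), *ACBP2* (AT4G27780), *ACBP3* (AT4G24230), *ACBP4* (AT3G05420), *ACBP5* (AT5G27630) and *ACBP6* (AT1G31812), and there were 37 of them among 180885 features. None of the 37 passed the thresholds for a differentially expressed gene (DEG) by limma after 8 h at 1% O2. DEGs were 2.82% of all features in the liverwort, 0.0839% in the moss, 0.719% in the horsetail and 0.0% in the lycophyte and fern. A count of 0 is close to these shares. Among members with a mean of at least 1 CPM and no overlap between air and hypoxia libraries, the largest change was in *M. polymorpha*. There the only feature with *ACBP6* as best hit was lower under hypoxia by 0.50 log2 units (SE 0.15, 2 against 2 libraries) and missed the threshold. The liverwort had 4 members, the moss 12, the lycophyte 10, the horsetail 5 and the fern 6. Members were picked by best hit and not by expression value, among loci that had passed the authors' filter on reads. Earlier results of these data were known at that time.

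The samples were 22 mRNA libraries of shoots or thalli from 13-day-old plantlets. Air libraries came from plants held for 8 h in darkness at 21% O2 and hypoxia libraries from plants held for the same time in darkness at 1% O2, so darkness was common to both. There were 3 libraries per condition for *E. hyemale* and 2 per condition for each of the other species. The methods describe a biological replicate as a pool of 3 thalli, plantlets or shoots. *M. polymorpha* and *P. patens* were sampled as haploid gametophytes and the other species as diploid sporophytes. *E. hyemale* grew in soil and had its RNA extracted, per the labels, with another kit than the other species, and every comparison below was made within a species.

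ACBPs bind long-chain acyl-CoA esters, protect them from hydrolysis and carry them between the plastid, the endoplasmic reticulum and other membranes. In *A. thaliana* they fall into 4 classes. Class I is the small cytosolic *ACBP6* and consists of little more than the acyl-CoA-binding domain. Class II holds *ACBP1* and *ACBP2*, which are anchored in membranes and carry ankyrin repeats for binding other proteins. Class III is *ACBP3*, a protein of the endomembrane system and the apoplast, and class IV holds *ACBP4* and *ACBP5*, large cytosolic proteins with kelch motifs. The family is known in hypoxia research because *A. thaliana* ACBP1 and ACBP2 hold the group VII ERF protein RAP2.12 at the plasma membrane in air, from where it moves to the nucleus when oxygen falls. *ACBP3* of *A. thaliana* has been linked to hypoxia tolerance through the metabolism of very-long-chain fatty acids.

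Expression is given as CPM, the reads of a feature per 1000000 reads, which are not scaled to transcript length and were normalized for each species alone, so levels were not compared between genes or between species. Depth, estimated from the CPM step of 1 read, lay between 16.2 and 28.9 M reads per library. Green tissue was checked with 6 photosynthesis genes, of which between 2 and 6 were present as best hits in a species, and their summed expression was at least 2532 CPM in every library. Summed dividing-cell markers were higher under hypoxia in *E. hyemale*, at 85.9 to 123.2 CPM against 57.4 to 68.8 CPM in air, and in the moss they were lower, at 42.4 to 42.8 CPM against 47.4 to 50.6 CPM, and the 1 such feature of the lycophyte was at 3.20 to 3.22 CPM against 3.47 to 3.75 CPM. Summed photosynthesis genes were lower under hypoxia in the moss, at 12440 to 13630 CPM against 15930 to 16320 CPM, where 15 of 38 features were lower and 0 higher at an unadjusted p under 0.05. They were also lower in *E. hyemale*, at 2532 to 2752 CPM against 3041 to 3478 CPM, with 8 of 23 features lower and 2 higher at that threshold. Among all features, 10.9% in the moss and 12.7% in the horsetail passed it in either direction. The 1 DEG of these 23 features went the other way. Ehym_DN105219_c1_g5, with *RBCS1A* as best hit, had 0.92 to 1.34 CPM in air and 17.9 to 31.7 CPM under hypoxia (adjusted p = 4.6e-05 by limma). The part of these markers in the values below was not tested. Changes are log2 fold changes (log2FC) of hypoxia over air on the log2(CPM + 1) scale, which understates changes of features with few reads. They were tested by limma over all features of a species, with Benjamini-Hochberg adjustment, and a DEG needed an adjusted p no larger than 0.01 and a change of more than 1 log2 unit in either direction.

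Over all members, 18 were higher and 19 lower under hypoxia, with a median log2FC of -0.008. By limma 0 of 37 were DEGs. The background share of DEGs among all features was 2.82% for the liverwort, 0.0839% for the moss, 0.0% for the lycophyte, 0.719% for the horsetail and 0.0% for the fern, and a count of 0 is close to these shares. At an unadjusted p under 0.05 there was 1 member, the *M. polymorpha* *ACBP6* feature. The same threshold was passed by 31.2% of all features of the liverwort, 10.9% of the moss, 15.8% of the lycophyte, 12.7% of the horsetail and 10.3% of the fern. Air and hypoxia libraries did not overlap for 12 members, 6 of which were higher and 6 lower under hypoxia, and overlapped for 25. Libraries that did not overlap were found for 60.5% of all features of the liverwort, 41.3% of the moss, 49.4% of the lycophyte, 19.0% of the horsetail and 42.6% of the fern, and for 2 of 4, 3 of 12, 5 of 10, 0 of 5 and 2 of 6 members in the same order.

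**Figure D1:**
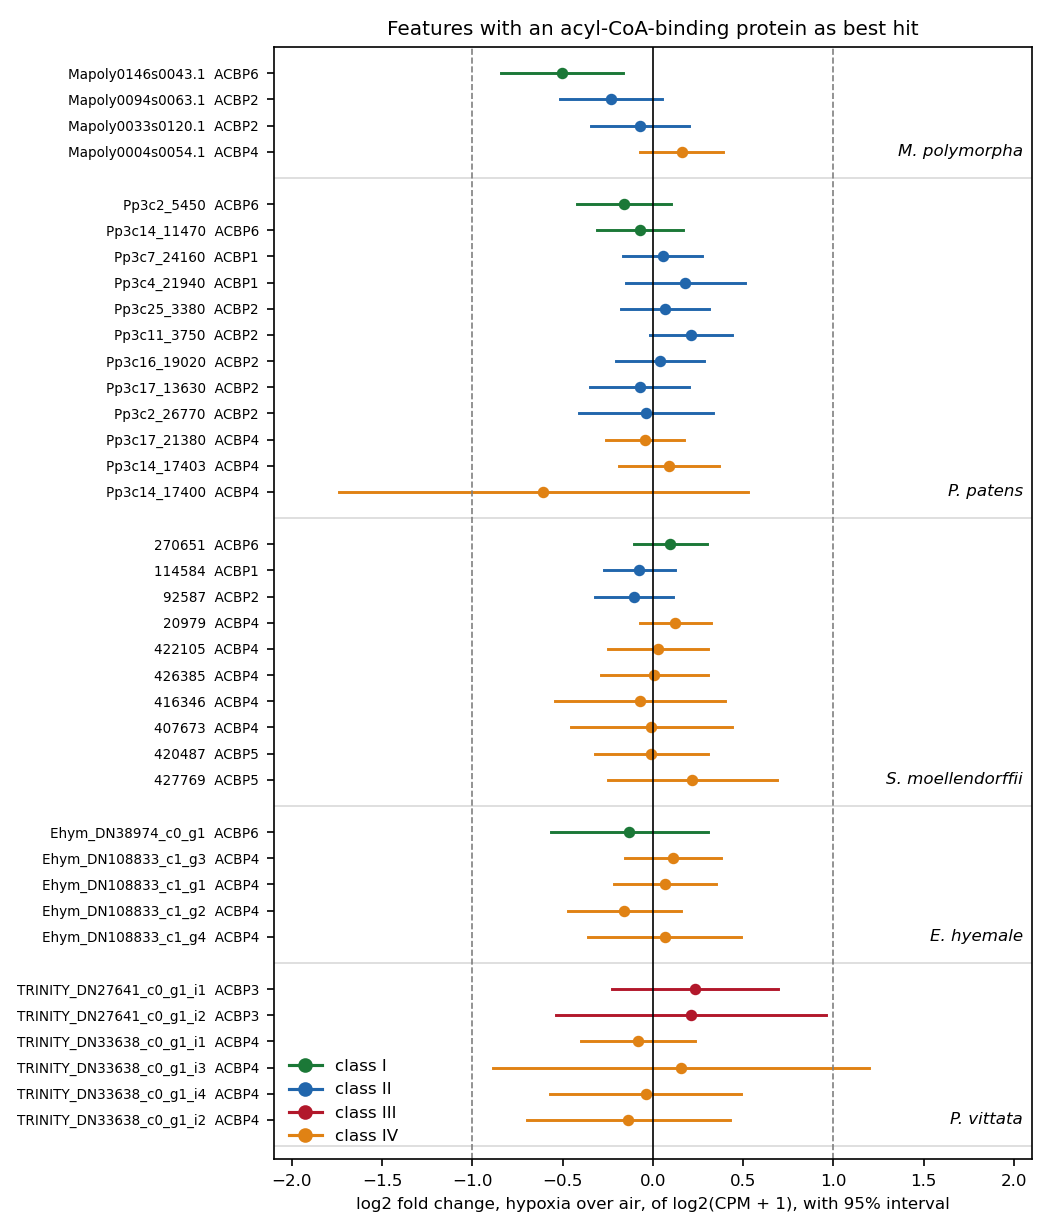
Change of every member under hypoxia. The x axis gives log2FC (hypoxia over air) on the log2(CPM + 1) scale, each row is 1 feature with the *A. thaliana* gene it hits best, points are estimates and lines their 95% intervals from limma, coloured by class, and dashed lines mark 1 log2 unit in each direction. All intervals but 1 include 0, and 35 of 37 lie between the dashed lines.

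The intervals say how large a change these libraries leave possible. For 35 of the 37 members the 95% interval from limma lay between -1 and 1 on the log2(CPM + 1) scale. A change of the size required of a DEG on that scale fell outside it. For the 2 members with a mean below 1 CPM this says little, since the added 1 CPM compresses their log2FC. With 0.1 CPM added instead, 1 of them, Ehym_DN38974_c0_g1, had a log2FC of -0.33 (SE 0.545). Intervals went beyond the range for Pp3c14_17400 of *P. patens*, down to -1.74, and for the transcript TRINITY_DN33638_c0_g1_i3 of *P. vittata*, up to 1.20. In both, the hypoxia libraries lay far apart, at 0.92 and 5.34 CPM in the first and at 15.5 and 6.48 CPM in the second. Intervals between -0.5 and 0.5 were obtained for 2 of 4 liverwort, 10 of 12 moss, 8 of 10 lycophyte, 4 of 5 horsetail and 1 of 6 fern members.

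The small changes can be read against all features above a common minimum of reads, which were not matched to the members in abundance. Among features with a mean of at least 5 CPM, the median size of the log2FC, whatever its sign, was 0.20 for the 4 liverwort members, against 0.19 for all 10945 such features. It was 0.07 for 10 members against 0.10 for 16257 features in the moss, and 0.07 for 7 members against 0.12 for 12805 features in the lycophyte. The horsetail had 0.09 for 4 members against 0.18 for 24992 features, and the fern 0.15 for 6 members against 0.22 for 31107 features. The median of the members was thus below that of the table in 4 species and slightly above it in *M. polymorpha*, a description of few members that was not tested.

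Members were put into classes by their best hit alone, and no domain was checked. BLAST expect values were given for *E. hyemale* and *P. vittata* only. Class I was represented by 5 features with *ACBP6* as best hit in 4 species, of which 4 were lower under hypoxia and 1 was higher. In *M. polymorpha*, Mapoly0146s0043.1 had 421.1 and 334.8 CPM in air and 291.0 and 240.7 CPM under hypoxia. Both hypoxia libraries were below both air libraries, and the mean went from 378 ± 61 to 266 ± 36 CPM (SD, n = 2 each). Its log2FC was -0.50 with a 95% interval from -0.84 to -0.17 (SE 0.15, unadjusted p = 0.0086, adjusted p = 0.051 by limma), so it passed neither the FDR threshold nor the minimum change of a DEG. The libraries hold whole plants, in which fewer cells that express a gene and less of its RNA per cell cannot be told apart. Without air replicate 1 the log2FC was -0.34 (adjusted p = 0.26 by limma) and without air replicate 2 it was -0.67 (adjusted p = 0.050).

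In *P. patens* both class I features carried many reads and had slightly lower means under hypoxia. Pp3c2_5450 had 282.7 and 321.1 CPM in air against 268.9 and 270.0 CPM under hypoxia, which did not overlap. Its log2FC was -0.16 with an interval from -0.42 to 0.10 (SE 0.11, adjusted p = 0.68 by limma). The second copy, Pp3c14_11470, had 196.0 to 206.2 CPM in air and 184.1 to 199.5 CPM under hypoxia, and its libraries overlapped.

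The direction in *S. moellendorffii* was the opposite. Locus 270651 had 244.7 and 268.9 CPM in air and 269.5 and 279.0 CPM under hypoxia, so that the higher air library lay within 1 CPM of the lower hypoxia library. The log2FC was 0.10 with an interval from -0.11 to 0.30 (SE 0.08, adjusted p = 0.62 by limma). In *E. hyemale*, the 1 feature with *ACBP6* as best hit, Ehym_DN38974_c0_g1, was barely detected. It had 0.34, 0.92 and 0.31 CPM in air and 0.22, 0.60 and 0.33 CPM under hypoxia, with full overlap and a log2FC of -0.13 (SE 0.20, adjusted p = 0.85 by limma). Its BLAST expect value against *ACBP6* was 1.14e-26, a clear match. No feature of the *P. vittata* table had *ACBP6* as best hit. Since only 38.2% of *E. hyemale* and 44.7% of *P. vittata* features carry any best hit, against 77.3 to 86.1% in the other species, this does not show that the gene is missing.

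Class II, whose *A. thaliana* members bind RAP2.12 at the membrane, held 11 features, of which 5 were higher and 6 lower, with a median log2FC of -0.04 and no DEG by limma. *M. polymorpha* had 2 features with *ACBP2* as best hit. Mapoly0094s0063.1 had 95.7 and 114.1 CPM in air and 95.7 and 82.5 CPM under hypoxia, where the lower air library and the higher hypoxia library were alike. Its log2FC was -0.23 with an interval from -0.51 to 0.05 (SE 0.12, adjusted p = 0.25 by limma). Mapoly0033s0120.1 had between 24.2 and 28.1 CPM in the 4 libraries and a log2FC of -0.07.

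*P. patens* had the most class II features, 2 with *ACBP1* and 5 with *ACBP2* as best hit. Pp3c25_3380, with most reads, had 121.3 and 106.4 CPM in air and 119.2 and 118.9 CPM under hypoxia. Both hypoxia libraries lay between the air libraries, and the log2FC was 0.07 with an interval from -0.17 to 0.31 (SE 0.10, adjusted p = 0.89 by limma). Pp3c11_3750 was the class II feature of *P. patens* whose libraries did not overlap, at 97.7 and 88.5 CPM in air and 108.1 and 107.9 CPM under hypoxia (log2FC 0.21, adjusted p = 0.49 by limma). The *ACBP1* feature Pp3c7_24160 had 90.9 to 97.6 CPM in air and 96.3 to 99.5 CPM under hypoxia. The other 4 had means between 2.65 and 26.4 CPM in either condition and log2FC between -0.07 and 0.18.

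*S. moellendorffii* had 1 feature of each class II gene. The *ACBP2* feature 92587 had 33.9 and 30.2 CPM in air and 29.6 and 29.8 CPM under hypoxia. Both hypoxia libraries were below the air libraries, by less than 1 CPM from the nearer one, and the log2FC was -0.10 with an interval from -0.32 to 0.11 (SE 0.09, adjusted p = 0.62 by limma). The *ACBP1* feature 114584 was also lower in both, with a log2FC of -0.07 and a mean of 28.9 CPM under hypoxia against 30.4 CPM in air. *E. hyemale* and *P. vittata* had no feature with *ACBP1* or *ACBP2* as best hit among those analysed here.

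**Figure D2:**
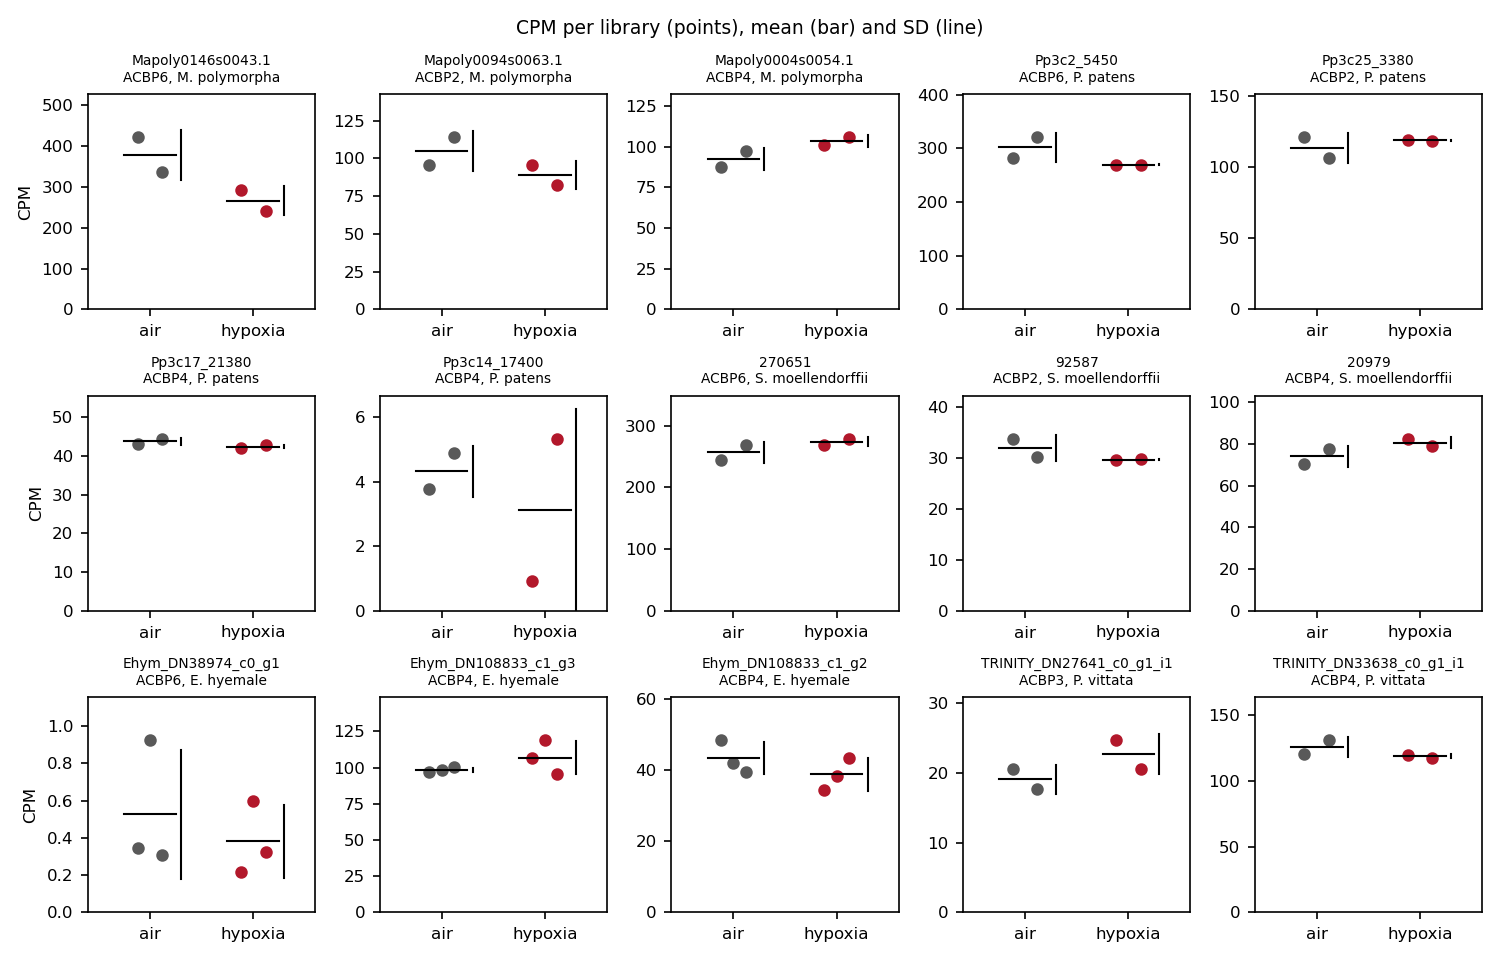
CPM of 15 members in each library. Each panel is 1 feature with its *A. thaliana* best hit and species, points are libraries, horizontal bars means and vertical lines 1 SD (n = 2 per condition, 3 in *E. hyemale*), and y axes start at 0 and differ between panels. The panel of Mapoly0146s0043.1 shows both hypoxia libraries below both air libraries, whereas in that of Pp3c14_17400 the hypoxia libraries lie at 0.92 and 5.34 CPM.

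Class IV, whose *A. thaliana* members carry kelch motifs, was the class with best hits in all 5 species. It held 19 features, 17 with *ACBP4* and 2 with *ACBP5* as best hit, of which 10 were higher and 9 lower, with a median log2FC of 0.01 and no DEG by limma. The single *M. polymorpha* feature, Mapoly0004s0054.1, had 87.9 and 97.2 CPM in air and 100.9 and 105.9 CPM under hypoxia. It was higher in both hypoxia libraries, while the other 3 members of the species had lower means, and its log2FC was 0.16 with an interval from -0.07 to 0.39 (SE 0.10, adjusted p = 0.32 by limma).

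In *P. patens*, Pp3c17_21380 had 43.1 and 44.5 CPM in air and 42.1 and 42.7 CPM under hypoxia. Both hypoxia libraries were lower, by less than 1 CPM from the nearer air library, with a log2FC of -0.04 and an interval from -0.26 to 0.17 (SE 0.09, adjusted p = 0.92 by limma). The other 2 features, Pp3c14_17400 and Pp3c14_17403, have neighbouring locus numbers and share the best hit, and reads of near-identical sequence could have been divided between them. Pp3c14_17400 had 3.78 and 4.90 CPM in air and 0.92 and 5.34 CPM under hypoxia. Hypoxia replicate 1 alone was low, and the log2FC of -0.61 (SE 0.48, adjusted p = 0.73 by limma) became 0.26 without it. Summed with its neighbour, the pair had 19.2 and 18.2 CPM in air and 16.6 and 20.3 CPM under hypoxia, which overlapped.

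The 7 class IV features of *S. moellendorffii* were led by locus 20979, with 70.2 and 77.5 CPM in air and 82.4 and 78.7 CPM under hypoxia. The libraries did not overlap, and the log2FC was 0.12 with an interval from -0.07 to 0.32 (SE 0.08, adjusted p = 0.50 by limma). The other 4 *ACBP4* features had log2FC between -0.07 and 0.03, at means of 1.27 to 7.78 CPM. Of the *ACBP5* features, 420487 had a log2FC of -0.01, and 427769 had 0.25 and 0.33 CPM in air against 0.37 and 0.63 CPM under hypoxia. The genome sequence of this species is known to hold both haplotypes at many loci, and whether some of these features are alleles of 1 gene was not tested.

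In *E. hyemale*, all 4 class IV features belonged to 1 Trinity cluster, Ehym_DN108833_c1, with expect values between 1.4e-85 and 1.64e-84. They may share reads, and their single values are therefore less certain than their sum. Ehym_DN108833_c1_g3 had 96.7, 98.1 and 100.1 CPM in air and 106.4, 118.9 and 95.5 CPM under hypoxia. Hypoxia replicate 4 was the lowest of the 6, and the log2FC was 0.11 with an interval from -0.15 to 0.38 (SE 0.12, adjusted p = 0.77 by limma). Ehym_DN108833_c1_g2 had 48.5, 42.2 and 39.7 CPM in air and 34.6, 38.4 and 43.7 CPM under hypoxia, with overlap and a log2FC of -0.16 (SE 0.14, adjusted p = 0.72 by limma). The sum of the 4 features was 228.4, 225.8 and 216.2 CPM in air and 229.2, 233.6 and 232.3 CPM under hypoxia. The summed values under hypoxia were all above those in air, by 1.04-fold on average, a difference that was not tested.

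In *P. vittata*, the 4 class IV features were transcripts of the single Trinity gene TRINITY_DN33638_c0_g1. The transcript with most reads, TRINITY_DN33638_c0_g1_i1, had 120.3 and 130.7 CPM in air and 119.6 and 117.4 CPM under hypoxia. Its log2FC was -0.08 with an interval from -0.40 to 0.24 (SE 0.12, adjusted p = 0.86 by limma). The remaining 3 transcripts had means between 6.55 and 11.0 CPM and log2FC between -0.14 and 0.16. Summed to the gene, 147.2 and 153.1 CPM in air stood against 151.1 and 137.2 CPM under hypoxia, and the log2FC was -0.06 (SE 0.12, adjusted p = 0.86 by limma). Expect values were 2e-62, 1e-58 and 9e-47 for 3 of the transcripts and 1e-06 for TRINITY_DN33638_c0_g1_i2.

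Class III appeared in *P. vittata* alone, and there its name is in doubt. TRINITY_DN27641_c0_g1_i1 and TRINITY_DN27641_c0_g1_i2 have *ACBP3* as best hit with expect values of 0.018 and 0.019, which are too weak to name a gene, and they are given here by the rule of membership. TRINITY_DN27641_c0_g1_i1 had 20.6 and 17.6 CPM in air and 24.7 and 20.7 CPM under hypoxia, where the higher air library nearly met the lower hypoxia library. The log2FC was 0.23 with an interval from -0.23 to 0.70 (SE 0.18, adjusted p = 0.71 by limma). Summed with TRINITY_DN27641_c0_g1_i2, the gene had 26.5 and 27.2 CPM in air and 32.3 and 31.1 CPM under hypoxia (log2FC 0.23, SE 0.11, adjusted p = 0.40 by limma).

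**Figure D3:**
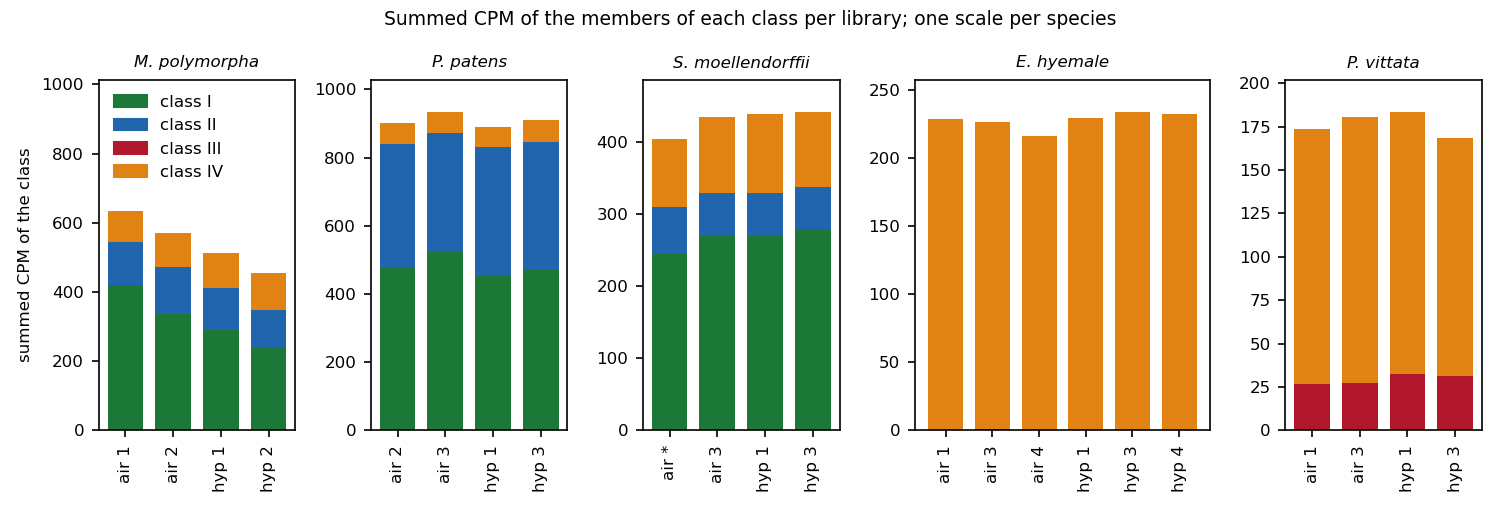
Summed CPM of the members of each class in every library. Bars are libraries (air, or hyp for hypoxia, with the replicate number, and an asterisk for the air library without a number), the y axis is CPM with a scale of its own for each species, and colours are classes. In *M. polymorpha* the bars run from 570 to 633 CPM in air and from 454 to 512 CPM under hypoxia, while in *P. patens* the conditions overlap.

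Adding the members of a class gives the reads held by each class, in reads and not in molecules. In *M. polymorpha* the summed family was lower in both hypoxia libraries, at 483 ± 41 CPM against 602 ± 44 CPM in air (SD, n = 2 each), a ratio of 0.80 that was not tested. Class I gave 66.5 and 58.7% of these reads in air and 56.9 and 53.0% under hypoxia. Class IV gave 13.9 and 17.1% in air and 19.7 and 23.3% under hypoxia. Class I, a single feature, had means of 378 CPM in air and 266 CPM under hypoxia. Those of class II were 131 and 114 CPM, and those of class IV were 92.5 and 103.4 CPM. The share of a class also depends on the sums of the others. The family held 918 ± 23 CPM in air and 900 ± 14 CPM under hypoxia in the moss, a ratio of 0.98. The sum of class II there was 361 and 344 CPM in air against 378 and 377 CPM under hypoxia. In *S. moellendorffii* the ratio of the summed family was 1.05, in *E. hyemale* 1.04 and in *P. vittata* 0.99. Class IV made up at least 99.6% of the reads of the family in every *E. hyemale* library.

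*ACBP4* was the one best hit of the family present in all 5 tables, so its summed features give a profile over the species. The log2FC of the sum was 0.16 in the liverwort, -0.04 in the moss, 0.10 in the lycophyte, 0.05 in the horsetail and -0.06 in the fern. Among 3248 other best hits present in all 5 tables, the nearest profiles by Euclidean distance over the 5 species belonged to AT5G18420, a subunit of the CCR4-NOT complex that shortens mRNA tails (distance 0.05), and to AT1G18340, a subunit of a basal transcription factor complex (distance 0.05). The next was AT4G38510, subunit B of the vacuolar proton pump (distance 0.07). The median distance over all of these best hits was 0.43, and the nearest of many profiles lie below it by construction. The likeness is one of small changes. Of 3249 best hits, *ACBP4* included, 453 had a log2FC no larger in size than 0.16 in every species.

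Enzymes that make and use acyl-CoA were read from the same fits. The lists held long-chain acyl-CoA synthetases, acyl-ACP thioesterases, the fatty acid elongase core, acyltransferases of membrane and storage lipids, and peroxisomal import and beta-oxidation, 31 *A. thaliana* genes in all. They matched 259 features, and by limma 0 were DEGs in either direction. Among all features, DEGs were 2.82% in the liverwort, 0.0839% in the moss, 0.719% in the horsetail and 0.0% in the lycophyte and fern. A count of 0 is close to these shares. The matched features had a median log2FC of 0.02 in the liverwort, 0.05 in the moss and 0.03 in the lycophyte. It was 0.07 in the horsetail and -0.04 in the fern, beside medians over all features between -0.001 and 0.003. At an unadjusted p under 0.05 there were 5 higher and 6 lower of 24 liverwort features, 5 and 3 of 47 moss features, 4 and 3 of 28 lycophyte features, 2 and 6 of 53 horsetail features and 4 and 6 of 107 fern features. The shares of all features past that threshold, in the same order, were 31.2%, 10.9%, 15.8%, 12.7% and 10.3%. Thioesterases, which release fatty acids from the plastid, summed to more under hypoxia in 3 species without overlap of the libraries. The sums were 300.5 to 307.2 CPM in air and 365.9 to 429.3 CPM under hypoxia in the liverwort, where the log2FC of the 6 features lay between -0.52 and 0.93. At an unadjusted p under 0.05, 2 of these liverwort features were higher and 3 lower, and the median log2FC was -0.01. Thioesterase sums in the moss were 187.9 to 191.8 CPM and 196.3 to 197.7 CPM. In the lycophyte they were 195.8 to 198.2 CPM and 222.7 to 233.7 CPM, and all 6 features had a positive log2FC, between 0.11 and 0.59. The thioesterase ranges overlapped in the horsetail and the fern. Other lists had sums without overlap too, in both directions. In the moss the elongase core was lower, at 142.7 to 150.6 CPM against 165.5 to 172.0 CPM in air. Peroxisomal import and beta-oxidation was higher there, at 1334 to 1360 CPM against 1179 to 1299 CPM. In the lycophyte it was lower, at 1609 to 1627 CPM against 1668 to 1692 CPM. The elongase core was also lower in the lycophyte, at 168.1 to 170.0 CPM against 171.2 to 172.3 CPM. In the fern it was higher, at 302.5 to 324.6 CPM against 299.4 to 302.3 CPM. Sums of synthetases were higher and those of acyltransferases lower in the moss, again without overlap. Libraries did not overlap for 60.5% of all single features of the liverwort, 41.3% of the moss, 49.4% of the lycophyte and 42.6% of the fern. Such a share was not computed for sums. No sum was tested.

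Features with the ERF proteins RAP2.12 or RAP2.3 as best hit, which in *A. thaliana* bind ACBPs, were found in 3 species. In *E. hyemale* 2 of 6 were DEGs, beside 0.719% of all features. Both belong to the same Trinity cluster and may share reads. Ehym_DN102597_c0_g1, with *RAP2.3* as best hit, rose from 17.4 to 17.9 CPM in air to 77.9 to 110.3 CPM under hypoxia (log2FC 2.25, SE 0.15, adjusted p = 3.3e-05 by limma), and Ehym_DN102597_c0_g2 rose from 0.69 to 2.29 CPM to 6.58 to 10.6 CPM (log2FC 1.85, SE 0.29, adjusted p = 0.0098 by limma). At an unadjusted p under 0.05, 4 of the 6 were higher and 2 lower, beside 12.7% of all features of the horsetail. Their log2FC lay between -0.71 and 2.25. The sum over all 6 was 622.3 to 756.8 CPM in air and 416.1 to 675.4 CPM under hypoxia, which overlapped. In *S. moellendorffii* 0 of 2 features and in *P. vittata* 0 of 1 were DEGs, beside 0.0% of all features in each. At an unadjusted p under 0.05 these were 1 and 0, beside 15.8% and 10.3% of all features.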

How the data were processed

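Reads were quality-trimmed by the authors and pseudo-aligned with Kallisto to reference transcriptomes, or to Trinity assemblies (k-mer size 31, minimum abundance 2) in *E. hyemale* and *P. vittata*, and loci with no sample above 20 reads were removed. The authors deposited log2 CPM per library, scaled by TMM factors in edgeR, with no pseudocount, an average log2 CPM of *E. hyemale*, BLAST expect values, and their own fold changes and FDR, which were not used. Other deposited values are the *E. hyemale* libraries, log2 CPM in which a 0 is a spreadsheet error text. Versions are not given in the sources used here. The per-library rows of *E. hyemale* follow the sorted identifiers, and their correlation with the average log2 CPM over 55254 genes was 0.0103 as deposited and 0.9996 when sorted. In *S. moellendorffii* 1 air column carries a number that no air label has, and entered the air group with no replicate number. No more than 80.4% of the low values of a library were whole reads within 0.1 read, so no count model was fitted.

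limma 3.58.1 in R 4.3.3 compared hypoxia with air on log2(CPM + 1), with an expression trend in the variance prior, fitted to all features of a species and tested on simulated data. Tables and plots were made with Python 3.11.15, pandas 2.3.3, numpy 2.4.6 and matplotlib 3.10.9. Given in full were the member of each class with most reads in a species, the member with the largest change among those of at least 1 CPM, and any called or separated by more than 1 log2 unit, 15 in all. Other members were given by values and ranges, and Pp3c11_3750, Pp3c7_24160, Pp3c14_11470 and 427769 were singled out after their values were seen. Members, lists and tests were chosen with earlier results of these data known. Alternatives were pseudocounts of 0.1 and 5 CPM, a filter at 1 CPM, other variance priors, library totals, other thresholds, leaving out each library, a replicate block and summed transcripts. No protein or promoter sequence was used here.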

Additional observations from a re-analysis of the deposited data

Results flagged for a closer look

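Best hits summed within a species were higher under hypoxia in one species and lower in another in 4 pairs, with no overlap between air and hypoxia libraries on either side. By limma no member of these sums was a DEG, and the sums themselves were not tested. The difference between species was not tested, since each table was normalized alone. For *ACBP2* the log2FC was 0.11 in *P. patens* and -0.20 in *M. polymorpha*. The same *P. patens* value stands against -0.10 in *S. moellendorffii*. For *ACBP6* it was 0.10 in *S. moellendorffii* against -0.50 in *M. polymorpha* and -0.12 in *P. patens*. Libraries that do not overlap are common among single features, at 60.5% for the liverwort *M. polymorpha*, 41.3% for the moss *P. patens* and 49.4% for the lycophyte *S. moellendorffii*. Such a share was not computed for sums.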

How the results depend on the processing

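The count of called members was 0 in each of the 5 species, and it was 0 under all 66 alternatives run. This count had little room to change. Member log2FC in the main fit lay between -0.61 and 0.23, short of the minimum change. No feature of *S. moellendorffii* or *P. vittata* was a DEG there (lowest adjusted p 0.081 and 0.18 by limma), so 0 does not set members apart. In the moss limma called 18 features. The paper, with another model, reports DEGs in these species, and more of them in the moss at the same thresholds. The lowest adjusted p of a member among the alternatives was 0.014 by limma. That value belongs to Mapoly0146s0043.1 with the replicate block, whose adjusted p by limma ranged from 0.014 to 0.26 over its alternatives and was 0.032 with library totals. Replicate numbers were not shown to pair the samples (same-number correlations of 0.031 in *M. polymorpha*, 0.061 in *P. vittata* and -0.276 to -0.075 in *E. hyemale*), and the block called 0 members in each. No block could be fitted in *P. patens* and *S. moellendorffii*, where the deposited columns of the conditions share 1 number. Among the 15 members given in full, 162 of 165 alternatives kept the direction. Leaving out a library turned the log2FC of Pp3c25_3380 (-0.027 to 0.16, negative without air replicate 3), Pp3c14_17400 (-1.47 to 0.26, positive without hypoxia replicate 1) and Ehym_DN38974_c0_g1 (-0.24 to 0.048, positive without air replicate 3). For Mapoly0146s0043.1 it gave -0.67 to -0.34. Other ranges without 1 library were -0.36 to -0.10 for Mapoly0094s0063.1, -0.25 to -0.07 for Pp3c2_5450, 0.03 to 0.16 for 270651, -0.18 to -0.02 for 92587 and 0.11 to 0.36 for TRINITY_DN27641_c0_g1_i1. At 16.2 M reads, 1 read is 0.0615 CPM, so values below 1 CPM rest on few reads.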

Other observations

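The flat profile of *ACBP4* can be set beside other genes. Of the 3249 best hits present in all 5 tables, 453 (13.9%) had a summed log2FC no larger in size than 0.16 in every species, the largest value of *ACBP4*. In *P. vittata*, some of the 107 transcripts of acyl-CoA enzymes had a log2FC of more than 1 in size with no overlap of air and hypoxia libraries, and none of them passed the test. Libraries that did not overlap were found for 42.6% of all *P. vittata* features. One such transcript, chosen after its values were seen, was TRINITY_DN34489_c0_g1_i3 with the acyl-CoA synthetase gene *LACS9* as best hit, at 1.76 and 2.36 CPM in air and listed at 0 in both hypoxia libraries (adjusted p = 0.23 by limma). Also chosen after their values were seen were transcripts of the single gene TRINITY_DN32681_c0_g1, with the acyltransferase gene *GPAT9* as best hit. Their log2FC had opposite signs, 1.06 (SE 0.26) for TRINITY_DN32681_c0_g1_i2 and -2.41 (SE 0.74) for TRINITY_DN32681_c0_g1_i4 (adjusted p = 0.33 and 0.40 by limma). TRINITY_DN32681_c0_g1_i4 had 0.026 and 3.83 CPM under hypoxia, against 10.4 and 11.3 CPM in air. How reads were divided between the transcripts of this gene was not tested.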
